A study of Mus musculus with 16 samples.

Results

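Chloride cotransporters and the kinases that switch them were followed in mouse hippocampus at postnatal day 1 (P1) and postnatal day 30 (P30). The set comprised 7 genes, namely the cotransporters Slc12a2 (NKCC1), Slc12a5 (KCC2) and Slc12a7 (KCC4) and the kinases Wnk1, Wnk3, Stk39 (SPAK) and Oxsr1 (OSR1). Its members were found by gene symbol, or by an older symbol with the same Entrez gene number, so that Wnk1 was found under Prkwnk1. Of 25697 probes on the beadchip, 11 matched, and they covered 6 of the 7 genes. No probe of the table belonged to Wnk3, which was not analysed here. On build GRCm38.p6, RefSeq places Slc12a2 on chromosome 18 from 57878512 to 57946821, Slc12a5 on chromosome 2 from 164960846 to 164999731, and Slc12a7 on chromosome 13 from 73733052 to 73816754. Wnk1 lies on chromosome 6 from 119923969 to 120038695, Stk39 on chromosome 2 from 68210445 to 68472108, and Oxsr1 on chromosome 9 from 119238432 to 119322684.

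Hippocampal RNA was hybridised to Illumina MouseRef-8 v2 beadchips on 16 arrays, with 4 arrays in each of 4 groups: WT P1, Mef2c-het P1, WT P30 and Mef2c-het P30. Neither the sample titles nor the paper states whether each array holds the RNA of a single mouse. All mice were on the C57BL/6J background and the labels name no agent. Mef2c-het mice, marked KO in the labels, carried a single conventional allele of Mef2c that lacks exon 2 in every cell, beside a WT allele, and WT mice were littermates. The tissue was whole hippocampus, so that fewer cells of a type and less RNA per cell cannot be told apart in any value below.

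Chloride sets whether GABA excites or inhibits a neuron. NKCC1 carries chloride into the cell together with sodium and potassium, KCC2 carries it out with potassium, and in the developing hippocampus a shift of weight from import to export is known to turn GABA from depolarising to inhibitory. WNK kinases sense low chloride and activate SPAK and OSR1, which then phosphorylate NKCC1 to switch it on and the KCC exporters to switch them off.

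RefSeq lists a pair of transcription starts for Slc12a5, and both promoter windows are shown because the gene mutated here, Mef2c, encodes a factor that binds a known DNA motif. Each window runs from 250 bases before a start to 50 bases after it on build GRCm38.p6 and is printed in the direction of transcription, with capitals for matches to the MEF2 consensus and to the E-box CACGTG.
Upstream start, chr2:164960596-164960895, plus strand: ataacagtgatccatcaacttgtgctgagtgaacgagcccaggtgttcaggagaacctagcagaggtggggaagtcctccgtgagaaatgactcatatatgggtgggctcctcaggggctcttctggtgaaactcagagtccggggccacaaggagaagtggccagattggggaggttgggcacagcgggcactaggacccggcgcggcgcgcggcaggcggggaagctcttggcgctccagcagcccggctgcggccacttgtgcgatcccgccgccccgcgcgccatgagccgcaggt
Downstream start, chr2:164967738-164968037, plus strand: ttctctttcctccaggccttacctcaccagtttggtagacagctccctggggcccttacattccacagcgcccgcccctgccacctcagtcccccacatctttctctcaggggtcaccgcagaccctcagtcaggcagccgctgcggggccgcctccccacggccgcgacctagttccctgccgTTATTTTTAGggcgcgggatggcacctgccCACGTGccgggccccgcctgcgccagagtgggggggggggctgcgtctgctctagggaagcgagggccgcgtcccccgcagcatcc
The upstream window held no match. The downstream window held 1 match to the MEF2 consensus, which began 66 bases before the start, and 1 E-box, which began 36 bases before it, and the matches did not overlap. Of 32851 RefSeq promoter windows of this length, 3.19% held the MEF2 consensus and 7.15% the E-box on either strand. The Egr motif GCGTGGGCG, in 0.612% of windows, was in neither. Among the other members searched, both overlapping windows of Slc12a7 held the same E-box, and the windows of Wnk1, Stk39 and Oxsr1 held none of the 3 motifs. A match of letters is not a binding site.

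Median bead numbers per probe were 36 to 39 over the arrays, the median standard error over the beads of a probe was 3.38% to 4.05% of its signal, and 12638 to 14150 probes per array were detected, meaning a detection p under 0.05 against negative control beads. At each age clustering split the arrays into 2 sets, a number fixed beforehand, and the minority of arrays in the smaller set had a higher background. They were WT P1 replicate 8, Mef2c-het P1 replicate 8, WT P30 replicates 6 and 7 and Mef2c-het P30 replicate 7, with a 5th percentile of intensity of 140.0 to 161.4 against 105.8 to 130.8 on the others. From sex-linked transcripts, all 8 P30 arrays read as male, whereas WT P1 held 3 female arrays and 1 male and Mef2c-het P1 held 2 of each. Of 6 hippocampal marker genes with a probe, all were detected on at least 1 array of each P1 group, and all but Neurod6 on at least 1 of each P30 group. Of 5 thalamus and 5 striatum markers with a probe, only Gbx2 and Adora2a were detected on no array. Detection of these markers therefore does not check the dissection. Mef2c itself was measured by 2 detected probes. On probe ILMN_2887992 the log2 signals at P30 were 8.58, 8.56, 8.92 and 8.66 in WT and 8.13, 8.39, 8.13 and 8.91 in Mef2c-het, a difference of -0.29 (exact permutation p = 0.200), and at P1 they were 8.34 to 8.51 in WT and 8.22 to 8.82 in Mef2c-het. On probe ILMN_2732465 the P30 signals were 9.56, 9.75, 9.75 and 9.57 in WT and 9.16, 9.71, 8.93 and 9.87 in Mef2c-het, a difference of -0.24 (exact permutation p = 0.371). Mef2c-het P30 replicate 7 was within the WT range on the first probe and above it on the second, and replicate 5 was within it on the second. A further probe, ILMN_1214950, was detected on 1 array of each P30 group and none at P1. The position of the probes relative to exon 2 is not given in the sources used here, so the signal does not check the genotype labels.

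From P1 to P30 in WT hippocampus, signal rose for NKCC1, KCC2, Wnk1 and SPAK and fell for KCC4. Of the 8 member probes that passed the detection filter (detection p under 0.05 on at least 4 of 16 arrays), 5 rose and 1 fell at an adjusted p under 0.05 in limma, and 2 did not pass. Among all 14777 probes tested, 28% rose and 31.7% fell, and 59.7% were called in either direction. In Mef2c-het hippocampus the same numbers were 5 and 1 of 8, against 26.9% and 31.4% of all probes and 58.3% in either direction. With more than every other probe called, a call by itself sets no member apart from the array. Slc12a5 passed the detection filter through P30 arrays alone, and Slc12a7 through P1 arrays alone. The age calls of these probes are therefore not independent of the filter. The same 5 probes rose, and the same probe fell, in both genotypes, and 5 of the 8 did not overlap between the ages in each genotype, against 53.1% of all probes in WT and 52.5% in Mef2c-het. Each limma p-value sets a difference of group means against the spread between arrays, with variances moderated over all probes tested. The number of arrays limits its precision.

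**Figure D1:**
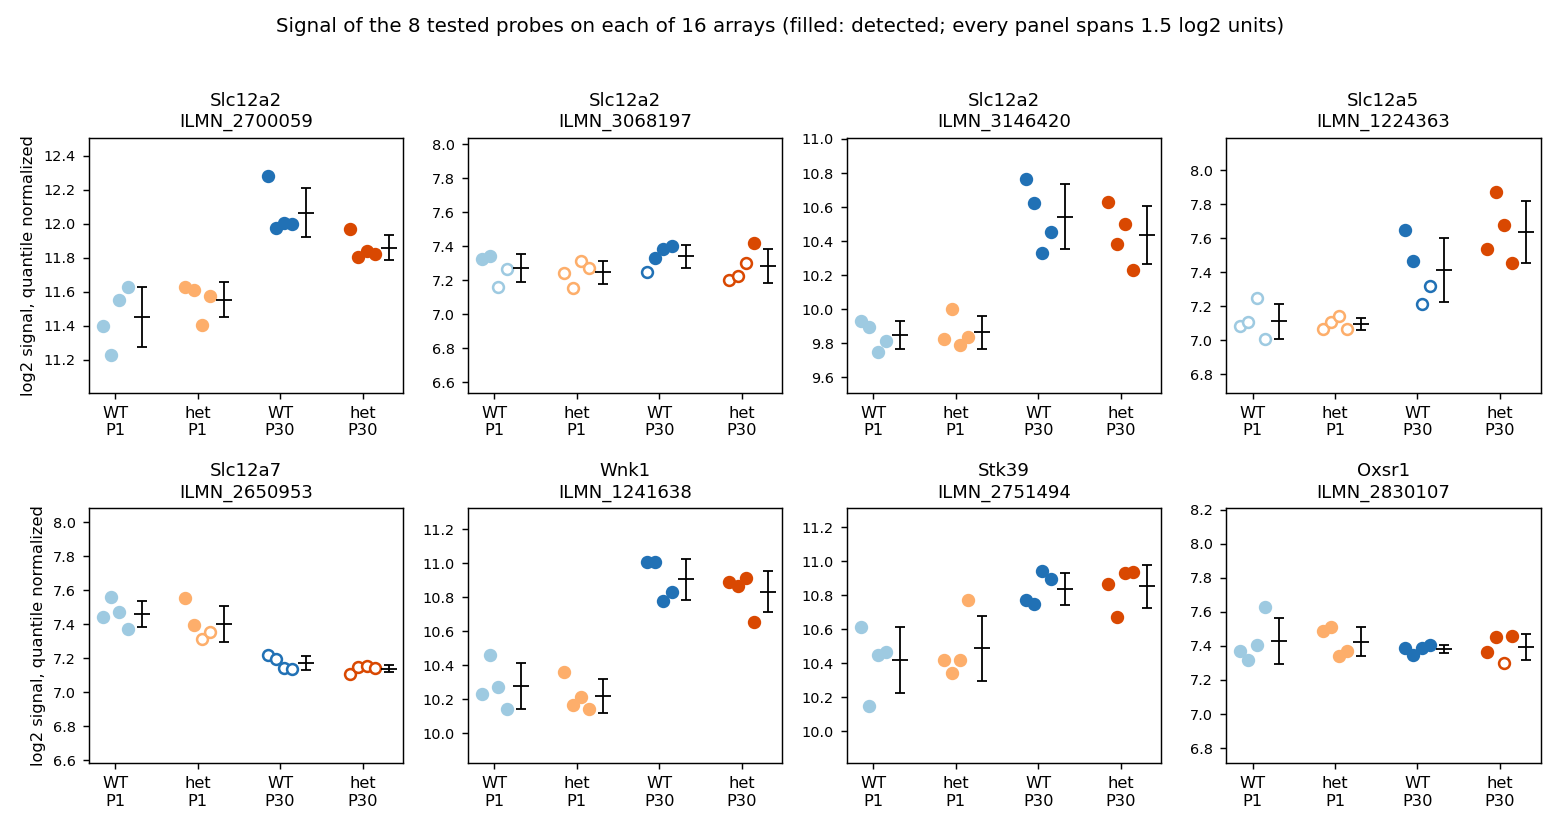
Log2 quantile normalized signal (y axis) of the 8 tested member probes on each of 16 arrays, in 4 groups of 4 (x axis), with the group mean and SD as black bars; filled points were detected. Both bright Slc12a2 probes, Wnk1 and Stk39 sit higher at P30, Slc12a5 is detected on no P1 array, Slc12a7 is detected on no P30 array, and Oxsr1 is level.

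Slc12a2, the chloride importer, did not fall between P1 and P30. On its brightest probe, ILMN_2700059, the log2 signals in WT were 11.40, 11.23, 11.55 and 11.63 at P1 and 12.28, 11.98, 12.003 and 11.998 at P30. Every P30 array was above every P1 array, and replicate 2 was the highest at P30. The rise in WT was 0.61 on the log2 scale (SE 0.090, 1.53-fold, adjusted p = 1.79e-05, exact permutation p = 0.0286, the smallest that 4 against 4 arrays allow). In Mef2c-het the signals were 11.63, 11.61, 11.40 and 11.57 at P1 and 11.97, 11.81, 11.84 and 11.82 at P30. These groups did not overlap either, and the rise was 0.31 (SE 0.090, 1.24-fold, adjusted p = 0.00791). The Mef2c-het call was lost with sex as a covariate (0.23, adjusted p = 0.0529) and with median scaling in place of quantile normalization (0.30, adjusted p = 0.130). In WT the rise was 0.50 with sex as a covariate (adjusted p = 0.00111) and 0.59 with median scaling (adjusted p = 0.00515). With arrays read as male only it was 0.44 in WT, where P1 is then a single array, and 0.27 in Mef2c-het.

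A second bright Slc12a2 probe, ILMN_3146420, moved the same way. Its signals in WT were 9.93, 9.89, 9.75 and 9.81 at P1 and 10.76, 10.63, 10.33 and 10.46 at P30, and in Mef2c-het they were 9.82, 10.002, 9.79 and 9.84 at P1 and 10.63, 10.38, 10.50 and 10.23 at P30. The ages did not overlap in either genotype. The rise was 0.70 in WT (SE 0.096, 1.62-fold, adjusted p = 9.62e-06) and 0.57 in Mef2c-het (1.49-fold, adjusted p = 7.66e-05). The other Slc12a2 probes carried little or no signal. ILMN_3068197 was detected on 2 of 4 WT P1 arrays, 3 of 4 WT P30 arrays, 0 of 4 Mef2c-het P1 arrays and 1 of 4 Mef2c-het P30 arrays and gave 0.07 in WT (adjusted p = 0.393), and ILMN_2617892 was detected on no array. Why probes of one gene differ so in brightness is not given in the sources used here.

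NKCC1 is abundant in choroid plexus, and pieces of that tissue can come along with hippocampus. The summed signal of 8 choroid plexus markers, on the linear scale, was 7438 to 35092 over the WT P1 arrays, 3021 to 28216 in Mef2c-het P1, 3308 to 27107 in WT P30 and 4507 to 7578 in Mef2c-het P30, with Aqp1 and Otx2 detected on no array of the last group. With age in WT, 2 of the 8 rose (Kl 1.31, Enpp2 1.89), 1 fell (Otx2 -0.90) and 5 were not called. Among all probes, 28% rose and 31.7% fell. Since the markers were split, sums of different ages are not compared. At P30 the sum of 27107 belonged to WT replicate 2, the array with the highest Slc12a2 signal, and the other WT P30 arrays were at 3308 to 5237. At P1 the WT arrays with the highest sums, replicates 1 and 4, had the lowest signals on ILMN_2700059 and the highest on ILMN_3146420. The Mef2c-het P1 arrays with the highest sums, replicates 1 (24387) and 4 (28216), had the highest and the lowest signal on ILMN_2700059. The part of choroid plexus in these values was not tested. Without WT P30 replicate 2 the rise in WT was 0.54 (adjusted p = 6.96e-05).

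Slc12a5, the neuronal chloride exporter, had a single probe, ILMN_1224363, which was at the edge of detection. At P1 its log2 signals were 7.09, 7.11, 7.25 and 7.01 in WT and 7.07, 7.11, 7.14 and 7.07 in Mef2c-het, and none of these 8 arrays detected it. At P30 they were 7.65, 7.47, 7.22 and 7.32 in WT, where replicates 2 and 3 were detected, and 7.54, 7.87, 7.68 and 7.46 in Mef2c-het, where all 4 were. Every Mef2c-het P30 array was above every P1 array, whereas WT P30 replicate 6 was below WT P1 replicate 5. Since a probe under detection has only an upper bound, the P30 signal in Mef2c-het was at least 1.25-fold higher than at P1, taking for P1 the dimmest signal among detected probes of each array. No such bound is given in WT, where 2 of 4 P30 arrays did not detect the probe either. The mean signals were 7.11 and 7.41 in WT, a difference of 0.30 (SE 0.096, adjusted p = 0.0131, exact permutation p = 0.0571), and 7.10 and 7.64 in Mef2c-het, a difference of 0.54 (adjusted p = 0.000140, exact permutation p = 0.0286). The probe passed the detection filter through P30 arrays alone. Its age p-values, here and below, are therefore not independent of the filter and only describe the difference.

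Near background, the size of the Slc12a5 rise depended on how background was treated. With normexp background correction it was 0.88 in WT (adjusted p = 0.00836) and 1.59 in Mef2c-het (adjusted p = 6.81e-05). The WT call was lost without WT P30 replicate 2 (0.22, adjusted p = 0.0528) and with arrays read as male only (0.39, adjusted p = 0.0854), where WT P1 is a single array assumed to vary like the rest. Both WT P30 arrays that did not detect Slc12a5 were of the higher-background minority. Without the minority arrays at either age the WT difference was 0.44 (adjusted p = 0.00254) and the Mef2c-het difference 0.64 (adjusted p = 4.48e-05). The part of array background in these values was not tested.

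**Figure D2:**
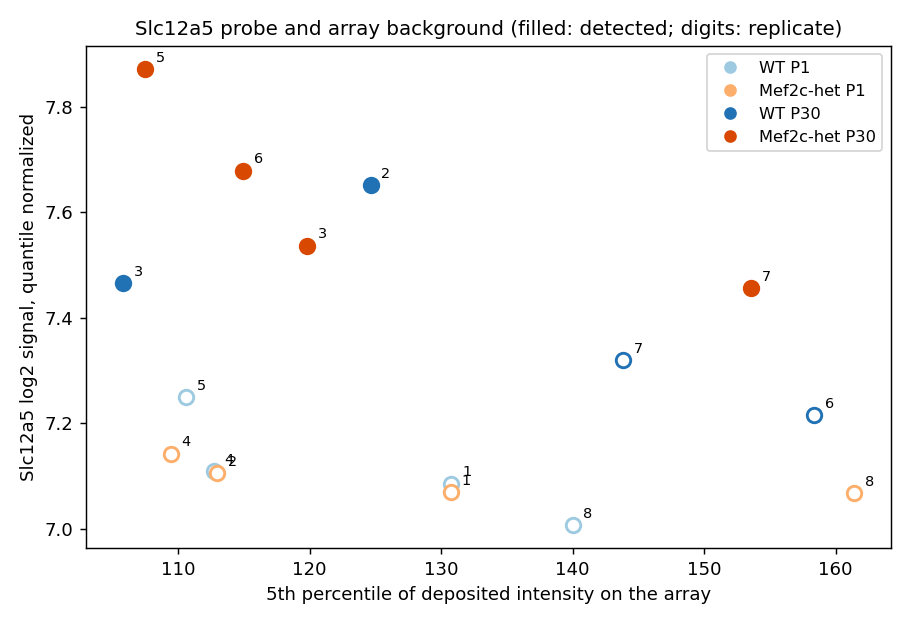
Slc12a5 log2 quantile normalized signal (y axis) against the 5th percentile of the deposited intensities of the same array (x axis, intensity units) for 16 arrays coloured by group, with the replicate number beside each point; filled points were detected. All P1 arrays lie at or below 7.25, and the lowest P30 arrays in both genotypes have a background of 143.8 or higher.

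Slc12a7, a potassium and chloride exporter of many tissues, went the other way. In WT its probe, ILMN_2650953, gave 7.44, 7.56, 7.47 and 7.37 at P1, all detected, and 7.22, 7.20, 7.14 and 7.13 at P30, none detected. In Mef2c-het it gave 7.55, 7.40, 7.31 and 7.35 at P1, of which replicates 1 and 2 were detected, and 7.11, 7.15, 7.16 and 7.14 at P30, again none detected. The ages did not overlap in either genotype. The P1 signal in WT was at least 1.10-fold higher than at P30, with mean signals of 7.46 and 7.17 (adjusted p = 0.000499). In Mef2c-het, where only 2 of 4 P1 arrays detected the probe and no bound is given, the mean signals were 7.40 and 7.14 (adjusted p = 0.00100). The probe passed the detection filter through P1 arrays alone. Both adjusted p-values are therefore not independent of the filter and only describe the difference. With normexp the differences were -0.94 and -0.84 on the log2 scale.

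Wnk1, the chloride-sensing kinase at the head of the cascade, rose on its 1 detected probe, ILMN_1241638. In WT the log2 signals were 10.23, 10.46, 10.28 and 10.14 at P1 and 11.01, 11.01, 10.78 and 10.83 at P30, and in Mef2c-het 10.36, 10.17, 10.21 and 10.14 at P1 and 10.89, 10.87, 10.92 and 10.66 at P30. The ages did not overlap in either genotype. The lowest P30 array of each was of the higher-background minority, and the part of background in that was not tested. The rise was 0.63 in WT (SE 0.084, 1.54-fold, adjusted p = 6.40e-06) and 0.61 in Mef2c-het (1.53-fold, adjusted p = 8.69e-06). A pair of further Wnk1 probes, ILMN_1258991 and ILMN_2655005, was detected on no array.

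Stk39, which encodes SPAK, the kinase that WNKs activate, rose less and with more spread. Its signals on ILMN_2751494 were 10.61, 10.15, 10.45 and 10.46 in WT P1 and 10.77, 10.75, 10.94 and 10.89 in WT P30, which did not overlap. In Mef2c-het they were 10.42, 10.34, 10.42 and 10.77 at P1 and 10.87, 10.67, 10.93 and 10.94 at P30, where P1 replicate 8 exceeded P30 replicate 5. The rise was 0.42 in WT (SE 0.11, 1.34-fold, adjusted p = 0.00256) and 0.36 in Mef2c-het (1.29-fold, adjusted p = 0.00713, exact permutation p = 0.0571). With male arrays only it was 0.37 in WT (adjusted p = 0.0823) and 0.30 in Mef2c-het (adjusted p = 0.0680), and with median scaling the Mef2c-het value was 0.31 (adjusted p = 0.0593).

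Oxsr1, the close relative of SPAK, showed no change with age that the test could call. Its probe was dim but detected on 15 of 16 arrays, with log2 signals from 7.30 to 7.63 over all groups. The difference between P30 and P1 was -0.05 in WT (95% interval -0.19 to 0.10) and -0.03 in Mef2c-het (-0.18 to 0.11). With male arrays only the WT value was -0.23 (adjusted p = 0.0689).

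**Figure D3:**
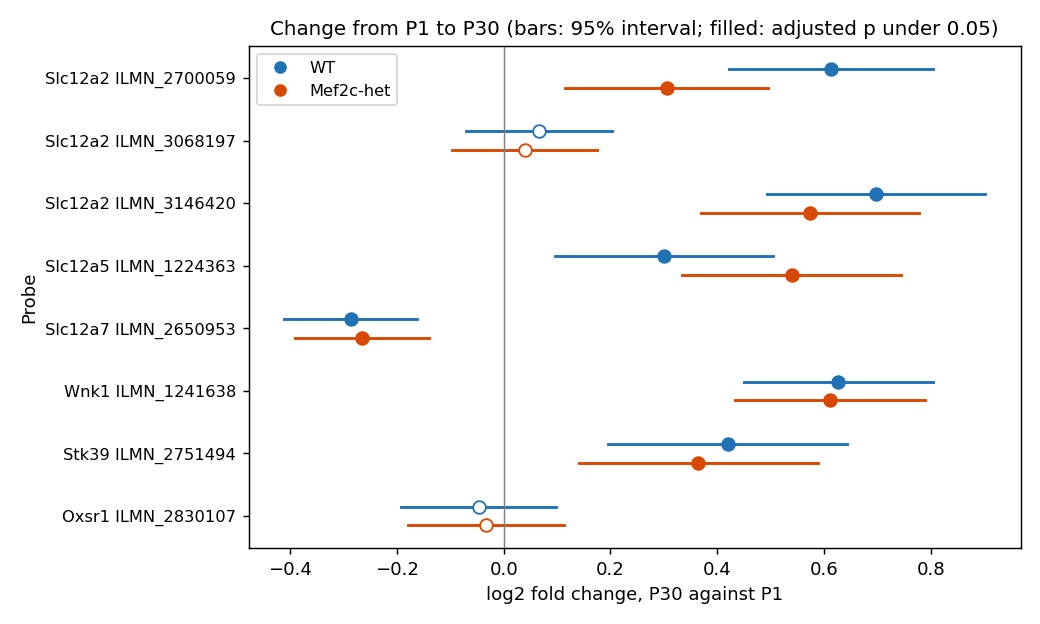
Log2 fold change from P1 to P30 (x axis) of the 8 tested member probes (y axis) in WT and Mef2c-het, from limma over all 16 arrays, with 95% intervals as bars; filled points have an adjusted p under 0.05. Intervals of the genotypes overlap at every probe, and the values of Slc12a2 ILMN_2700059 (0.61 and 0.31) and Slc12a5 (0.30 and 0.54) lie farthest apart. Slc12a5 and Slc12a7 passed the detection filter through arrays of a single age, so their calls are not independent of it.

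The importer and exporter probes were also set against each other within each array, as Slc12a5 minus Slc12a2 log2 signal. A change in this difference shows unequal change of the probes, while its size has no meaning as a ratio of transcripts. Against ILMN_2700059 the mean difference was -4.34 ± 0.21 in WT P1, -4.46 ± 0.13 in Mef2c-het P1, -4.65 ± 0.11 in WT P30 and -4.22 ± 0.23 in Mef2c-het P30 (SD, n = 4 each). The Slc12a5 probe was detected on no P1 array and on 2 of 4 WT P30 arrays, so these differences depend on its background and no direction with age is drawn from them. From P1 to P30 the difference moved by -0.31 in WT and by 0.23 in Mef2c-het. Against ILMN_3146420 the means were -2.73 ± 0.16, -2.77 ± 0.10, -3.13 ± 0.022 and -2.80 ± 0.24 in the same order, so that in Mef2c-het the sign of the move depended on the Slc12a2 probe. In WT the sign depended on the treatment of background, since with normexp the move was 0.24 against ILMN_2700059. At P30 the 4 WT arrays were between -4.79 and -4.51 on the first pair and the 4 Mef2c-het arrays between -4.43 and -3.93. The Slc12a2 probe of this pair by itself separated the genotypes at P30. The WT P30 arrays that did not detect Slc12a5 were of the higher-background minority. No test was made and no share over other probe pairs was taken, so no genotype difference is drawn from these ranges.

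Between genotypes no member passed the adjusted threshold at either age. At P1, 6 member probes were tested and limma called 0, as it did of all 13566 probes (0%), and at an unadjusted p under 0.05 the counts were 0 members and 220 probes (1.62%). No member probe separated the genotypes at P1, against 1.29% of all probes. The differences of Mef2c-het against WT lay between -0.06 for Slc12a7 and 0.10 for Slc12a2 ILMN_2700059, and their 95% intervals reached from -0.24 to 0.33 at most. Slc12a5 was not tested at P1, being detected on none of the 8 arrays, and its signals overlapped (exact permutation p = 0.771).

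At P30, 7 member probes were tested and 0 called, against 1 of 13413 probes (0.00746%), which was that of the chemokine Ccl9, named after its value was seen. At an unadjusted p under 0.05 there was 1 member probe of 7, against 316 of all probes (2.36%), and the same probe was the 1 member without overlap, against 1.75% of all probes. It was Slc12a2 ILMN_2700059, with signals of 12.28, 11.97, 11.99 and 11.99 in WT and 11.96, 11.80, 11.83 and 11.82 in Mef2c-het when P30 arrays were normalized alone. The highest Mef2c-het array lay just below the lowest WT array. The difference was -0.21 (SE 0.083, 95% interval -0.39 to -0.02, adjusted p = 0.976, exact permutation p = 0.0286). Leaving out WT replicate 2, the array with the high choroid plexus sum, it was -0.13, and the part of choroid plexus in the difference was not tested. The second bright probe, ILMN_3146420, gave -0.11 (-0.36 to 0.15) with overlapping groups, and -0.03 without WT replicate 2.

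Slc12a5 at P30 was higher in Mef2c-het by 0.21 (SE 0.11, 95% interval -0.04 to 0.46, adjusted p = 0.976, exact permutation p = 0.143), with overlapping groups and an interval that includes 0. The signals were 7.63, 7.46, 7.22 and 7.32 in WT and 7.52, 7.85, 7.66 and 7.45 in Mef2c-het. The lowest WT arrays were replicates 6 and 7 and the lowest Mef2c-het array replicate 7, all 3 of the higher-background minority, of which WT held 2 and Mef2c-het 1. With array cluster as a block the difference was 0.15, and without the minority arrays 0.14, while normexp gave 0.64 (adjusted p = 0.977). The part of array background in the genotype difference was not tested. Wnk1 differed by -0.07 (-0.27 to 0.12), Stk39 by 0.02 (-0.17 to 0.20) and Oxsr1 by 0.01 (-0.12 to 0.14). Slc12a7, detected on no P30 array, was not tested.

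The change of the genotype effect between the ages was tested as an interaction, and limma called 0 of 8 member probes and 0 of 14777 probes (0%). At an unadjusted p under 0.05 there were 438 probes (2.96%), of which 1 was a member probe. It was Slc12a2 ILMN_2700059, with -0.31 (95% interval -0.58 to -0.04, adjusted p = 0.998 in limma), and Slc12a5 gave 0.24 (-0.05 to 0.53). The different rises of Slc12a2 and Slc12a5 in WT and Mef2c-het were therefore not told apart by this test.

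**Figure D4:**
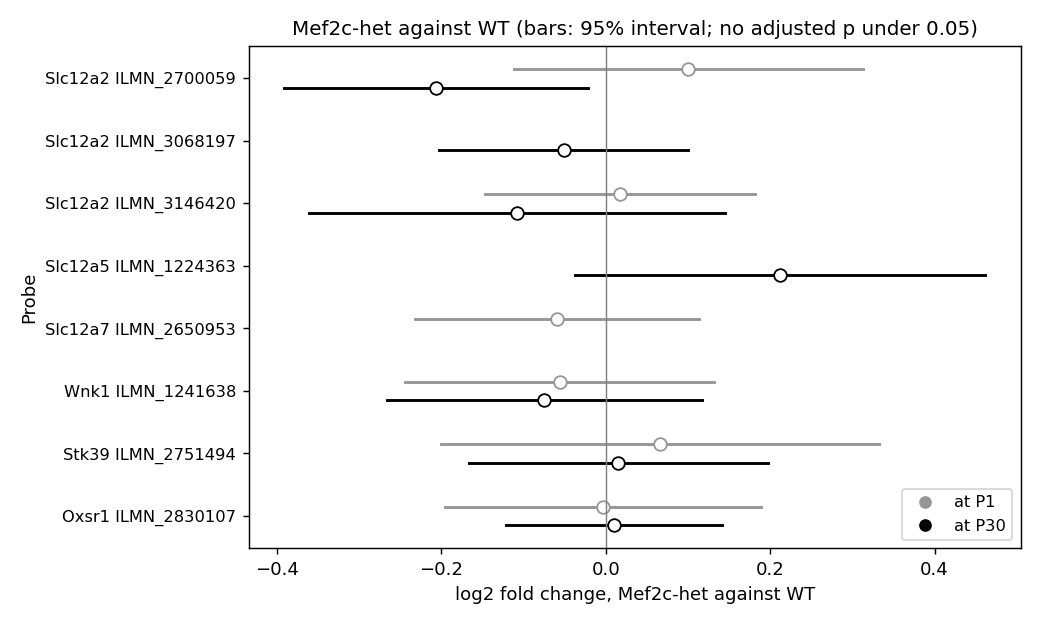
Log2 fold change of Mef2c-het against WT (x axis) of the member probes tested (y axis) at P1 and at P30, from limma on the 8 arrays of each age, with 95% intervals as bars. The interval excludes 0 before adjustment at Slc12a2 ILMN_2700059 at P30 only (-0.39 to -0.02), and no adjusted p was under 0.05.

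Beyond the members, Slc12a8, a relative in the same transporter family, fell by 0.23 in WT (adjusted p = 0.0107) and by 0.25 in Mef2c-het from P1 to P30. Slc12a4, the housekeeping exporter KCC1, gave 0.05 in WT (adjusted p = 0.620) and -0.01 in Mef2c-het. Further genes of the chloride system were read from 3 lists, with the brightest tested probe of each gene. The median over all probes was -0.03 in WT and -0.02 in Mef2c-het. Of all probes tested, 59.7% were called with age in WT (28% higher, 31.7% lower) and 58.3% in Mef2c-het (26.9% and 31.4%).

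Of the other WNK pathway genes 5 of 9 were tested, and in WT 4 rose and 1 fell, with a median of 0.39. Without WT P1 replicate 1, or without WT P30 replicate 3, 3 of these 5 were called, as with sex as a covariate, and 2 with median scaling. Sgk1, a kinase that acts on the same transport pathway, rose by 1.44 in WT (adjusted p = 1.61e-08) and 1.32 in Mef2c-het, and Klhl2, an adaptor of the ubiquitin ligase that degrades WNK kinases, by 0.44 (adjusted p = 0.0480) and 0.55. Cab39l, which encodes a scaffold of SPAK and OSR1, rose by 0.39 in both. Nedd4l, a ubiquitin ligase of ion transporters, fell by 0.57 in WT (adjusted p = 2.97e-06) and 0.53 in Mef2c-het. In Mef2c-het 3 rose and 1 fell, Cul3 being the gene called in WT alone (0.16, adjusted p = 0.0231, against -0.04, adjusted p = 0.596). The difference of those Cul3 values was -0.20 (adjusted p = 0.998 in limma).

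Of the genes for other chloride and bicarbonate transport 10 of 14 were tested, and 7 rose and 0 fell in each genotype, with medians of 0.40 in WT and 0.33 in Mef2c-het. Car2, a carbonic anhydrase that is also abundant in oligodendrocytes, rose by 2.22 in WT (adjusted p = 2.12e-09) and 2.41 in Mef2c-het. The lysosomal exchanger gene Clcn7 and the channel gene Clcn2 each rose by 0.64 in WT (adjusted p = 3.06e-06 and 4.97e-07), and Car7, the neuronal carbonic anhydrase, by 0.51. The smallest called rises in WT were those of the bicarbonate transporter genes Slc4a3 (0.35, adjusted p = 0.000492) and Slc4a8 (0.20, adjusted p = 0.0345), with 0.37 and 0.20 in Mef2c-het. With median scaling 4 of the 10 were called in Mef2c-het.

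Of the KCC2 partners and regulators 11 of 15 were tested, and 7 rose and 3 fell in WT, with a median of 0.72. Egr4, a transcription factor known to act on the Slc12a5 promoter, rose by 2.86 in WT (adjusted p = 2.10e-07) and 2.76 in Mef2c-het, and Pacsin1, whose protein binds KCC2, by 2.79 (adjusted p = 1.09e-12) and 2.68. Capn2, a calpain, and Usf1, an E-box binding factor, fell by 0.63 and 0.50 in WT (adjusted p = 0.000206 and 4.94e-05) and by 0.38 and 0.56 in Mef2c-het. In Mef2c-het 8 rose and 2 fell. No gene of the 3 lists was called between genotypes at either age or for the interaction. At an unadjusted p under 0.05 there was 1 gene at P30, against 2.36% of all probes, and there were 0 at P1, against 1.62%. The P30 gene was Capn1 at 0.24 (adjusted p = 0.976 in limma), the protease that cleaves KCC2. For the interaction there was 1 gene in the WNK pathway list and 1 among the KCC2 partners and regulators, against 2.96% of all probes.

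**Figure D5:**
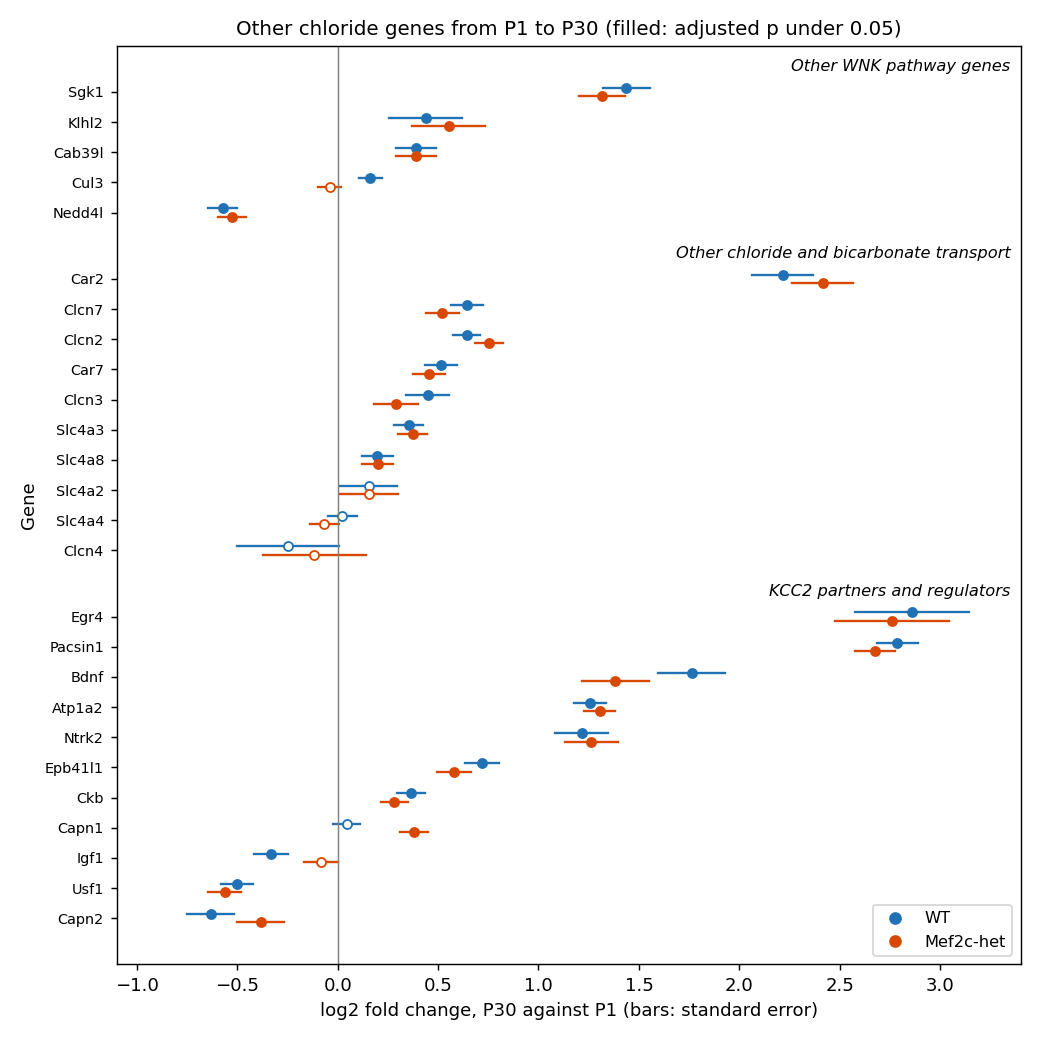
Log2 fold change from P1 to P30 (x axis) of the tested genes of the 3 chloride lists (y axis) in WT and Mef2c-het, with the standard error as bars; filled points have an adjusted p under 0.05. Egr4 and Pacsin1 lie farthest to the right in both genotypes, at 2.68 to 2.86, and Capn2 is lowest in WT at -0.63.

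Markers of cell types moved over the same interval, in which 28% of all probes tested rose and 31.7% fell in WT. In WT, 8 of 8 oligodendrocyte markers rose (median 5.09), and their summed signal went from 2030 to 2539 at P1 to 94228 to 103743 at P30, with Mog and Mobp detected on no WT P1 array. Mature neuron markers rose for 6 of 7 tested (median 1.57; summed signal 26099 to 30490 and then 85741 to 87244, with Snap25 detected on no array) and astrocyte markers for 7 of 8 (median 0.81; 27816 to 31551 and then 51724 to 55519, with S100b detected on no WT P1 array). In Mef2c-het the summed signals were 2178 to 3207 and then 90430 to 101575 for oligodendrocytes, 26506 to 30155 and then 81327 to 84728 for mature neurons, and 28830 to 32713 and then 50812 to 54149 for astrocytes. In WT, immature neuron markers fell for 5 of 5 (median -2.36; 63344 to 67792 and then 17099 to 18903) and proliferation markers for 5 of 5 (median -2.04; 2876 to 3572 and then 796 to 819, with Cdk1 detected on no WT P30 array). NKCC1 and the kinases are made by neurons and glia alike, and the part of these shifts in the members' values was not tested.

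Among all tested probes of other genes, those most like Slc12a5 over the 16 arrays were Ghitm, Gad1, Rasgrp1, Cnksr2 and 6430702L12, with Pearson's r of 0.946 to 0.948. With group means removed r was 0.791 to 0.863. Gad1, which encodes a GABA-synthesising enzyme, rose by 1.27 in WT and 1.51 in Mef2c-het from P1 to P30. Those most like Slc12a2 ILMN_2700059 were Piga, Herpud1, Pip4p2, Hectd2 and P2ry14, with r of 0.926 to 0.950 and 0.661 to 0.715 with group means removed. These are descriptions over arrays that share age, normalization and background, and they carry no test.

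Within the set, Wnk1 and Slc12a2 ILMN_3146420 had the highest r over the 16 arrays (0.946), and 0.566 with group means removed. Slc12a5 followed Slc12a2 ILMN_2700059 with 0.649, and with group means removed 0.160. The bright Slc12a2 probes gave 0.876 with each other, and 0.335 with group means removed, so that within a group even probes of the same gene ordered the arrays only loosely.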

How the data were processed

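The deposited table holds, for each of 25697 probes and 16 arrays, the mean bead intensity, which per the file headers is not normalized, the standard error over beads as an intensity, a detection p-value and a count of beads. The authors' methods name log2 transformation and quantile normalization. Whether the scanner software took off local background is not given in the sources used here. The lowest intensity was 92.8, so no constant was added. The submitters' processing notes name lumi and limma. No arrays held identical values.

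Log2, quantile normalization and limma 3.58.1 (lmFit, eBayes, R 4.3.3) were applied to the deposited intensities, two-sided, with Benjamini-Hochberg adjustment over all probes tested and a threshold of 0.05. A probe was tested if detected (p under 0.05) on at least 4 arrays of the fit. Age contrasts and the interaction came from all 16 arrays as 4 groups, and genotype contrasts from the 8 arrays of an age, normalized alone. Levels shown with age contrasts are from the 16-array normalization. For single probes, all splits of 8 arrays into 4 and 4 gave an exact permutation p, two-sided. The fitting code was tested on simulated data. Of the probes, 24823 were named through the RefSeq gene table of GRCm38.p6 and 874 kept the name in the table. Promoter windows are from RefSeq.

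Named were every member probe, Mef2c, up to 2 highest and 2 lowest called genes of each list in WT with age, and the 5 genes of highest r with Slc12a5 and with Slc12a2. Cab39l, Clcn2, Car7, Slc12a4, Capn1, Ccl9 and single markers were named after their values were seen. A gene that this rule also names is not reported here. The members, lists and tests were chosen with earlier results of these data known, so no list is independent evidence. Alternatives were normexp (offset 16), median scaling, cyclic loess, no filter, detection p under 0.01, trended robust variances, each array left out, other sets of arrays, sex, array cluster and replicate blocks.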

Additional observations from a re-analysis of the deposited data

Results flagged for a closer look

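Of 44 sets of 4 arrays (11 member probes in 4 groups), 3 held an array far from the other 3, where chance alone flags about 2.2. In WT P30, replicate 2 stood above the others on Slc12a2 ILMN_2700059, at 12.28 against 12.003 for the next array, a gap of 0.911 of the group's range. On the undetected Wnk1 probe ILMN_2655005 the same array stood below the others, at 7.18 against 7.30 (0.920 of the range). In Mef2c-het P1, replicate 8 stood above the others on Stk39, at 10.77 against 10.42 (0.830 of the range). Without it the Stk39 rise in Mef2c-het was 0.46 on the log2 scale.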

How the results depend on the processing

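A comparison of 4 against 4 arrays cannot give an exact p under 0.0286. Signals of Slc12a5, Slc12a7 and Oxsr1 lie near background, where quantile normalized differences are compressed and normexp differences are larger. Directions of the called member probes with age held under every alternative run.

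Among all probes called, the count between genotypes at P1 went from 0 to 2 with all 16 arrays together, to 1 with array cluster as a block, and to 1 without the smaller array clusters. At P30 it went from 1 to 0 with normexp background correction, median scaling, cyclic loess and without the smaller array clusters, and without any single array but Mef2c-het replicate 3 (0 to 1 over these fits). For the interaction it went from 0 to 1 with array cluster as a block. No alternative called a member between genotypes.

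Whether replicate numbers of the labels pair the arrays is not given in the sources used here. The correlations of deviations from the group means between same-numbered WT and Mef2c-het arrays were 0.090, 0.402 and 0.828 at P1 and 0.185, -0.53 and 0.708 at P30. In the pairs at 0.828 and 0.708 both arrays were of the higher-background minority, and in the pair at -0.53 only the WT array was. The correlations therefore cannot decide whether the numbers mark pairs. With the replicate block, 3 probes were called at P1 and 0 at P30, and Slc12a2 ILMN_2700059 differed by -0.12 at P30. For the interaction the replicate block called 0. No paired analysis was possible for the age contrasts because WT arrays of P1 and P30 share no replicate number, and Mef2c-het arrays share none either.

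Member probes called in WT with age went from 6 to 3 with male arrays only, chosen after seeing the data, where WT P1 is 1 array, Slc12a7 was not tested, and Slc12a5 and Stk39 had differences of 0.39 and 0.37 (0.30 and 0.42 otherwise), and ranged from 5 to 6 over the fits without single arrays. Members without overlap went from 5 to 2 in Mef2c-het with age under median scaling, and at P30 from 1 to 0 under median scaling and to 2 without the smaller array clusters. The WNK pathway count in WT went from 5 to 2 with median scaling and to 3 with sex as a covariate or male arrays only, and ranged from 3 (without WT P1 replicate 1 or WT P30 replicate 3) to 5 over the fits without single arrays. The chloride and bicarbonate count in Mef2c-het went from 7 to 4 with median scaling. The Slc12a5 minus Slc12a2 difference moved with normexp to 0.85 for genotype at P30 (0.42 otherwise), to 1.28 in Mef2c-het with age and to 0.24 in WT with age, the last a change of sign, and to -0.053 in WT with male arrays only. The cause was not tested.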
